A study of Rattus norvegicus with 8 samples.

Results

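The nucleolar ribosome assembly factors are proteins that process ribosomal RNA and build it into ribosomal subunits, and their messenger RNA was followed here in the liver of rats fed potassium perfluorooctanesulfonate (PFOS), a fluorinated surfactant. The set was a list of 60 gene symbols: 30 factors of the small subunit, 19 of the large subunit, 7 proteins of small nucleolar ribonucleoproteins (snoRNPs) and 4 nucleolar proteins with several roles. All probes whose accession maps to these symbols through RefSeq were taken, which gave 60 probes for 52 of the 60 genes, out of 15154 genes with a symbol on the array. The symbols were chosen on the log2 changes between PFOS and control livers on these same arrays, which were already known, so the changes of that contrast are given as a description and are not evidence for the set. No probe was matched to Nop14, Rrp12, Utp6, Wdr36, Wdr75, Tsr1, Rrp1b or Nhp2. The probe of Utp20 was well above background on 0 arrays and was not tested, which left 51 genes, all of them well above background on all 8 arrays.

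The animals were adult male Sprague-Dawley rats, 4 of which ate a diet with 50 mg/kg PFOS for 28 days and 4 of which ate a control diet over the same days. Each rat had its own two-colour Agilent array. Liver RNA carried Cy5 and a universal rat reference RNA, a commercial pool, carried Cy3 on every array, and no dyes were swapped. Values below are log2 ratios of liver to pool, and a change is the PFOS mean minus the control mean on that scale. A feature was called when its adjusted p in limma's test (Benjamini-Hochberg, over all 15204 features tested) was under 0.05.

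Ribosomes are assembled in the nucleolus, where RNA polymerase I transcribes a long precursor RNA. Large complexes fold and cut this precursor around the U3 snoRNP to make the small subunit, while other factors assemble the large subunit, and box C/D and box H/ACA snoRNPs guide methylation and pseudouridylation of the RNA. In liver, as in other tissues, the demand for these factors follows growth and protein synthesis, and many of their genes are known targets of MYC, which binds the E-box CACGTG.

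RefSeq promoter windows of the GRCr8 assembly, 250 bases before and 50 bases after the annotated start, were found for 55 of the 60 genes. They are shown for 4 genes whose change was called, 1 from each of the 4 classes, that each held the E-box or an ETS-type motif. Both motifs were more frequent in the set than in promoters of tested genes. Rrp9 and Ppan, the called genes with the largest changes in the small and large subunit classes, held neither motif. Capitals mark CACGTG in the first 3 sequences and CCGGAAG or its reverse complement in the fourth.
Pno1: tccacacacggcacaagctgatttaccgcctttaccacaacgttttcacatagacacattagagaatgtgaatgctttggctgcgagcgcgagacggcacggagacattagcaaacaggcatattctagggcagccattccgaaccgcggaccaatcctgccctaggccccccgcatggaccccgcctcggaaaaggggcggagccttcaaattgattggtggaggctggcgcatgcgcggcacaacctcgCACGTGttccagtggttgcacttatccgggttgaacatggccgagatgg
Gnl3: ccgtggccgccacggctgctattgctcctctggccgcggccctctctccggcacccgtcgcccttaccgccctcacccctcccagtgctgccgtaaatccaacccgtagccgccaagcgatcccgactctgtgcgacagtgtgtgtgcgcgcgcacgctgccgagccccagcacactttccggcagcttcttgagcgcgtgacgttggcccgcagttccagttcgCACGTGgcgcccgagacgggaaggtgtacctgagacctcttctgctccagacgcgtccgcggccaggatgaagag
Mybbp1a: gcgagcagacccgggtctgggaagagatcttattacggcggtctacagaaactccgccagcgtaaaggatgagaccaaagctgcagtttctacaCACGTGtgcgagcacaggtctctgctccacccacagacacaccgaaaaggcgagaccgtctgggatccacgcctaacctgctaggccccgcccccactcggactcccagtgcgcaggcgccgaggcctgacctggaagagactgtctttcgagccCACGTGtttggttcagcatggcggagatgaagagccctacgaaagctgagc
Nop58: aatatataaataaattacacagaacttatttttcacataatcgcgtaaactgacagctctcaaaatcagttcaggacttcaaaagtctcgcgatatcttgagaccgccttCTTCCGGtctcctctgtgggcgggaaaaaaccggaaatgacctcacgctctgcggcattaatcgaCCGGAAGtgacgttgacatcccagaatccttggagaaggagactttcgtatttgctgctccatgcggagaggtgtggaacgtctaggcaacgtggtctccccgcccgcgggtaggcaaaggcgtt
These windows lie at chr14:95819854-95820153 on the minus strand for Pno1, chr16:6219733-6220032 on the minus strand for Gnl3, chr10:57555208-57555507 on the plus strand for Mybbp1a and chr9:68614824-68615123 on the plus strand for Nop58. The E-box began 1 base after the start in Pno1 and 25 bases before it in Gnl3. Mybbp1a held 1 E-box that began 156 bases before the start and another that began 1 base before it. The 2 ETS-type matches of Nop58 began 140 and 75 bases before the start.

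CACGTG stood on either strand in 21 of the 55 promoters (38.2%). It was found in 18 of 72 promoters of other assembly factors (25%), in 9.41% of the 7927 promoters of tested genes and in 6.42% of all 33469 promoters in the table. CCGGAAG stood in 29 of the 55 (52.7%), which is close to the 52.8% of the other assembly factors. That motif was in 17.8% of the promoters of tested genes. The GC box GGGCGG was as frequent in the set as in promoters of tested genes, at 60% against 59.8%, and TATAAA was in 5.45% against 8.24%. Another motif, the direct repeat bound by PPAR alpha (DR1), was in 0 of the 55, 0 of the 72 and 3 of the 7927 promoters. The exact sequence searched was in only 18 of all 33469 promoters (0.0538%), so its absence from the set is uninformative. The 5 motifs were searched on both strands; 12 promoters held both CACGTG and CCGGAAG, and 38 held at least 1 of them. A match is a description of the letters and not a binding site.

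**Figure D1:**
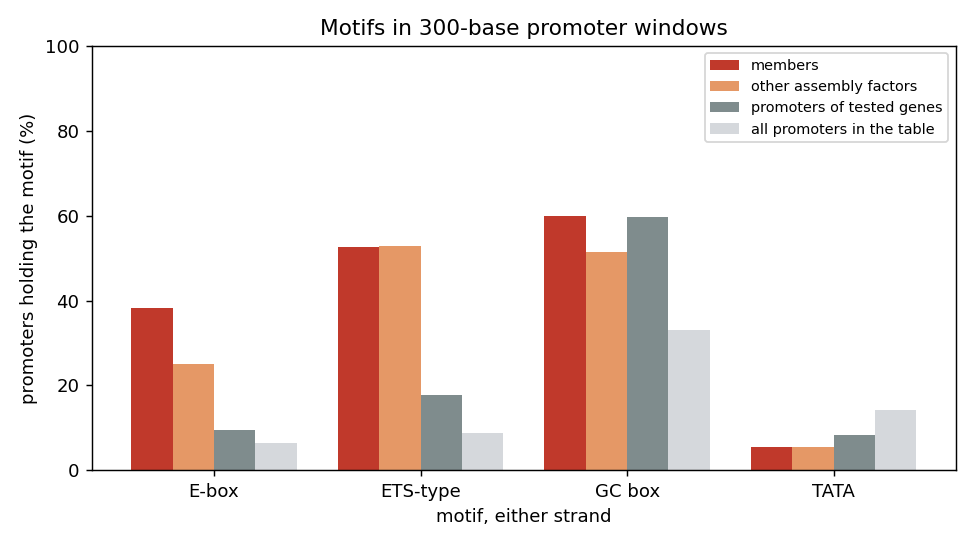
Share of promoter windows (percent, vertical axis) that hold each of 4 of the 5 motifs on either strand, for the 55 promoters of the set, 72 of other assembly factors, 7927 of tested genes and all 33469 in the table. The E-box was in 38.2% of the set and 9.41% of promoters of tested genes, while the GC box was in 60% and 59.8%.

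The changes of genes with and without each motif are given as a description, since the same contrast chose the genes. Among the 46 tested genes with a promoter, the median change was 0.28 for the 17 with CACGTG and 0.32 for the 29 without it. It was 0.32 for the 25 with CCGGAAG and 0.30 for the 21 without it. CACGTG was in 6 of the 12 called genes with a promoter (50%) and in 11 of the 34 that were tested and not called (32.4%). These shares rest on few promoters and were not tested.

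All 8 arrays were on 1 slide and had 1 scan date. Each of its 2 rows held 2 PFOS and 2 control arrays, and row 1 was brighter: its median Cy5 intensities were 154.5 to 160, those of row 2 were 116 to 138, and the local background was 71 to 75. The share of the 30367 probes that the software marked as well above background was 50.4% to 59.1%. Of the 15204 features, 606 were called (3.99%), 280 of them higher in PFOS livers (1.84%), and the median change of all features was -0.01.

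In PFOS livers, 14 of the 51 tested assembly factors were called higher, where 1.84% of all features were, and 0 were called lower by limma, where 2.14% were. At an unadjusted p under 0.05, 37 were higher and 1 was lower, where 9% and 10.9% of all features were. The choice of the genes used this contrast, so nothing is read from these counts. Of the 51, 50 had a change above 0, where 47.7% of all features did, the exception being Nop10. The median was 0.30 with a range of -0.19 to 0.80. The standard errors of these changes ran from 0.068 to 0.137. The changes were modest in size: 5 genes reached 1.5-fold, and the lowest fold among the called genes was 1.33. In 32 genes every PFOS rat was above every control rat, where 5.91% of all features showed this, and 18 of these 32 were not called. In whole liver, a change in the number of cells of a type and a change in RNA per cell cannot be told apart.

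**Figure D2:**
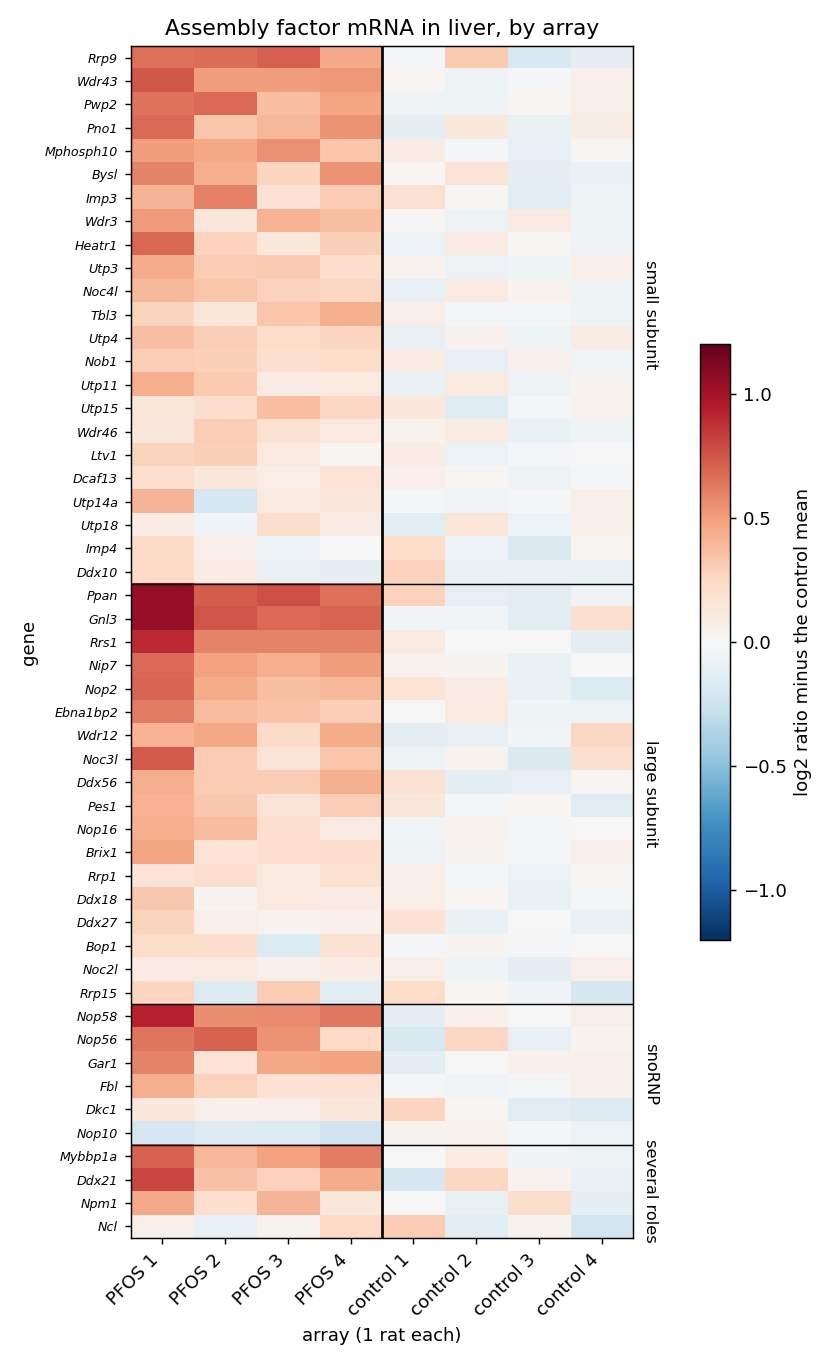
Log2 ratio minus the control mean (colour) of the 51 tested assembly factors (rows, by class and by change) on the 4 PFOS and 4 control arrays (columns, 1 rat each). Most rows are red on all PFOS arrays and pale on the control arrays, and Nop10 alone is blue on all 4 PFOS arrays.

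Each PFOS rat was above the control mean in most of the genes. The median over the 51 genes of the value minus the control mean was 0.43, 0.29, 0.23 and 0.25 in PFOS rats 1 to 4, and 0.02, 0.01, -0.04 and -0.003 in control rats 1 to 4. The number of genes above the control mean was 50, 46, 47 and 47 in the PFOS rats. PFOS rat 1 thus stood above the other 3 PFOS rats, and its array, like that of PFOS rat 2, was in the brighter row 1. The median change of the set was 0.26 without it and lay between 0.26 and 0.33 whichever of the 8 arrays was left out. The number of called genes was 9 to 12 in those fits, and it was 9 without PFOS rat 1 and 9 without control rat 3. With 2 rats per group, the median was 0.36 in slide row 1 and 0.24 in slide row 2, and 0 of the 51 were called in either row. With slide column as a block 7 were called, and with median centring in place of loess 3 were.

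Of 30 small subunit factors, 24 had a probe and 23 were tested. All 23 changes were above 0, with a median of 0.29, and 6 were called: Rrp9, Wdr43, Pwp2, Pno1, Mphosph10 and Bysl. Rrp9, a protein specific to the U3 snoRNP, measured -0.80, -0.79, -0.74 and -1.0 in PFOS rats, against -1.47, -1.14, -1.64 and -1.58 in control rats. The groups did not overlap, and control rat 2 lay nearest to the PFOS rats. Its change was 0.63 with a standard error of 0.12. Wdr43, known in yeast as Utp5 of the complex that first binds the precursor, measured -0.37, -0.61, -0.62 and -0.60 in PFOS rats, against -1.10, -1.18, -1.14 and -1.05 in control rats. The change was 0.57 (SE 0.08), and PFOS rat 1 was the highest.

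Pwp2 is the core of a second early complex, called UtpB in yeast. It measured -0.73, -0.70, -1.02 and -0.90 in PFOS rats, against -1.42, -1.43, -1.36 and -1.31 in control rats, a change of 0.54 (SE 0.09) with no overlap. A second probe of Pwp2 changed by 0.44, and on it the groups overlapped. Pno1, which positions the nuclease Nob1 at the end of the 18S RNA, measured 0.54, 0.20, 0.26 and 0.40 in PFOS rats, against -0.26, -0.02, -0.23 and -0.05 in control rats. Its change was 0.49 (SE 0.10). With loess every PFOS rat was above the pool while every control rat was below it, a level that depends on the normalization. Heatr1, named Utp10 in yeast, had 0.33, -0.09, -0.23 and -0.08 in PFOS rats and -0.43, -0.26, -0.35 and -0.41 in control rats. The groups did not overlap, by a narrow margin, and Heatr1 was not called at 0.34 (SE 0.12), with PFOS rat 1 far above the other 3.

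Mphosph10 forms a complex with Imp3 and Imp4 on the U3 snoRNP, and the 3 changes were 0.46, 0.37 and 0.06, of which only the first was called. Mphosph10 measured 0.06, 0.02, 0.11 and -0.11 in PFOS rats, against -0.34, -0.45, -0.54 and -0.43 in control rats. With loess the PFOS rats lay around the level of the pool and the control rats all below it. Bysl, named Enp1 in yeast, acts on the late precursor of the small subunit. It measured 0.05, -0.10, -0.28 and 0.00 in PFOS rats, against -0.51, -0.37, -0.64 and -0.62 in control rats, a change of 0.46 with no overlap. Nob1, the nuclease that makes the end of 18S RNA, had a change of 0.25 without overlap and was not called. Ltv1, which acts in export and maturation of the same particle, had a change of 0.18 with overlap.

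The other small subunit genes code mostly for Utp proteins, which are the building blocks of the early processome in yeast. Of these, Wdr3 (0.36), Utp3 (0.32), Noc4l (0.31), Tbl3 (0.29), Utp4 (0.28), Utp15 (0.24), Wdr46 (0.18) and Dcaf13 (0.14) had every PFOS rat above every control rat without being called. Wdr3, Tbl3 and Dcaf13 are counterparts of the yeast proteins Utp12, Utp13 and Sof1. The groups overlapped for Utp11 (0.24), Utp14a (0.11), Utp18 (0.09) and Imp3. Utp14a had the widest spread among these, with 0.23, -0.39, -0.07 and -0.04 in PFOS rats, against -0.20, -0.21, -0.20 and -0.11 in control rats, so PFOS rat 1 was the highest and PFOS rat 2 the lowest of all 8. The smallest changes in the class were those of Ddx10, an RNA helicase, at 0.03, and Imp4, and both overlapped.

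Of 19 large subunit factors, 18 were tested. All 18 changes were above 0, with a median of 0.33, and 6 were called: Ppan, Gnl3, Rrs1, Nip7, Nop2 and Ebna1bp2. Ppan, named Ssf1 in yeast, had the largest change of the 51, with -0.13, -0.45, -0.41 and -0.52 in PFOS rats, against -0.90, -1.28, -1.32 and -1.23 in control rats. Its change was 0.80 (SE 0.12), and control rat 1 lay closest to the PFOS rats. Gnl3, the GTP-binding protein nucleostemin, measured 0.26, -0.03, -0.10 and -0.09 in PFOS rats, against -0.82, -0.81, -0.91 and -0.59 in control rats. The groups were well apart, and the change was 0.79 (SE 0.11).

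Rrs1 brings the 5S ribonucleoprotein into the large subunit, as shown in yeast. It measured 1.10, 0.80, 0.80 and 0.80 in PFOS rats, against 0.32, 0.21, 0.21 and 0.09 in control rats. With loess every rat of both groups was above the pool, a level that depends on the normalization, and the change was 0.67 (SE 0.10). Nip7, which is needed for large subunit RNA processing in yeast, measured -0.31, -0.50, -0.56 and -0.49 in PFOS rats, against -0.94, -0.95, -1.07 and -0.99 in control rats, a change of 0.52 (SE 0.08) with no overlap.

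Pes1 forms the PeBoW complex with Bop1 and Wdr12. It measured -0.76, -0.86, -1.03 and -0.88 in PFOS rats, against -1.05, -1.20, -1.16 and -1.31 in control rats. The margin between the groups was small, and the change of 0.30 (SE 0.09) was not called. Its partners changed by 0.39 (Wdr12) and 0.11 (Bop1), neither called, so none of the 3 PeBoW genes was called. Nop2, which methylates the large subunit RNA, measured -0.69, -0.95, -1.04 and -0.99 in PFOS rats, against -1.23, -1.30, -1.49 and -1.56 in control rats. It changed by 0.48, and by 0.36 on its second probe, with no overlap on either. Ebna1bp2, named Ebp2 in yeast, measured -0.68, -0.91, -0.95 and -1.01 in PFOS rats, against -1.30, -1.18, -1.35 and -1.36 in control rats, again with no overlap. Among the called genes, Nop2 and Ebna1bp2 (0.41) were closest to the threshold, and Gar1 (0.43), Ddx56 (0.37) and Nop56 (0.53) were the nearest outside it.

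The Noc proteins form heterodimers that accompany the precursor particles in yeast. Noc3l changed by 0.38 with overlap, since PFOS rat 3 lay below control rat 4. It measured 0.02, -0.41, -0.56 and -0.39 in PFOS rats, against -0.77, -0.68, -0.89 and -0.52 in control rats. Noc2l changed by 0.09 with overlap. The groups did not overlap for Ddx56 (0.37), an RNA helicase, for Nop16 (0.27), for Brix1 (0.26), which belongs to a family of RNA-binding assembly proteins with Ppan, or for Rrp1 (0.17). None of these 4 was called. The helicases Ddx18 (0.14) and Ddx27 (0.11) overlapped, as did Rrp15, whose change of 0.07 (SE 0.14) was the smallest of the class.

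Of the 7 snoRNP proteins, 6 were tested, with a median of 0.35. The box C/D proteins are Nop58, Nop56 and the methyltransferase fibrillarin, Fbl. Nop58 was the only snoRNP gene called and measured -1.33, -1.70, -1.69 and -1.62 in PFOS rats, against -2.37, -2.21, -2.26 and -2.19 in control rats. Its change was 0.67 (SE 0.10) with no overlap. Nop56 measured -1.48, -1.41, -1.59 and -1.88 in PFOS rats, against -2.31, -1.87, -2.21 and -2.09 in control rats. PFOS rat 4 and control rat 2 were level, so the groups overlapped, and the change of 0.53 (SE 0.13) was not called. On a second probe of Nop56, which changed by 0.46, they did not overlap. Fbl measured -1.01, -1.17, -1.28 and -1.27 in PFOS rats, against -1.46, -1.48, -1.47 and -1.39 in control rats, a change of 0.26 (SE 0.08) that was not called although the groups did not overlap.

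The box H/ACA proteins had changes of both signs. Gar1 measured -0.54, -0.97, -0.67 and -0.65 in PFOS rats, against -1.24, -1.13, -1.08 and -1.08 in control rats. The groups did not overlap, with PFOS rat 2 the lowest of its group, and the change of 0.43 (SE 0.10) was not called. Dkc1, the pseudouridine synthase dyskerin, had 0.23, 0.17, 0.18 and 0.24 in PFOS rats and 0.37, 0.13, -0.02 and -0.06 in control rats, so the groups overlapped. Its change was 0.10 (SE 0.10). Nop10, the small protein that joins Dkc1, was the lower one: it measured 0.32, 0.37, 0.37 and 0.29 in PFOS rats, against 0.57, 0.57, 0.50 and 0.47 in control rats. All 4 PFOS rats lay below all control rats, and the change of -0.19 (SE 0.07) was not called. Its second probe gave -0.14.

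Among the 4 proteins with several roles the median was 0.39. Mybbp1a, a nucleolar protein that binds transcription factors and associates with ribosome precursors, measured -0.19, -0.50, -0.41 and -0.28 in PFOS rats, against -0.89, -0.80, -0.94 and -0.96 in control rats. It was called at 0.55 (SE 0.09), and its second probe gave 0.56. Ddx21, an RNA helicase of the nucleolus, measured -1.01, -1.45, -1.52 and -1.36 in PFOS rats, against -2.00, -1.56, -1.76 and -1.89 in control rats. It was not called at 0.47 (SE 0.14), and the groups did not overlap by a small margin.

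Npm1, the chaperone nucleophosmin, measured -1.75, -2.01, -1.80 and -2.07 in PFOS rats, against -2.21, -2.30, -2.00 and -2.32 in control rats. The groups overlapped, and the change was 0.30 (SE 0.11). Ncl, nucleolin, had -1.54, -1.70, -1.56 and -1.37 in PFOS rats and -1.31, -1.74, -1.56 and -1.83 in control rats. Its change of 0.06 (SE 0.12) was below its standard error, and neither of the 2 was called.

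**Figure D3:**
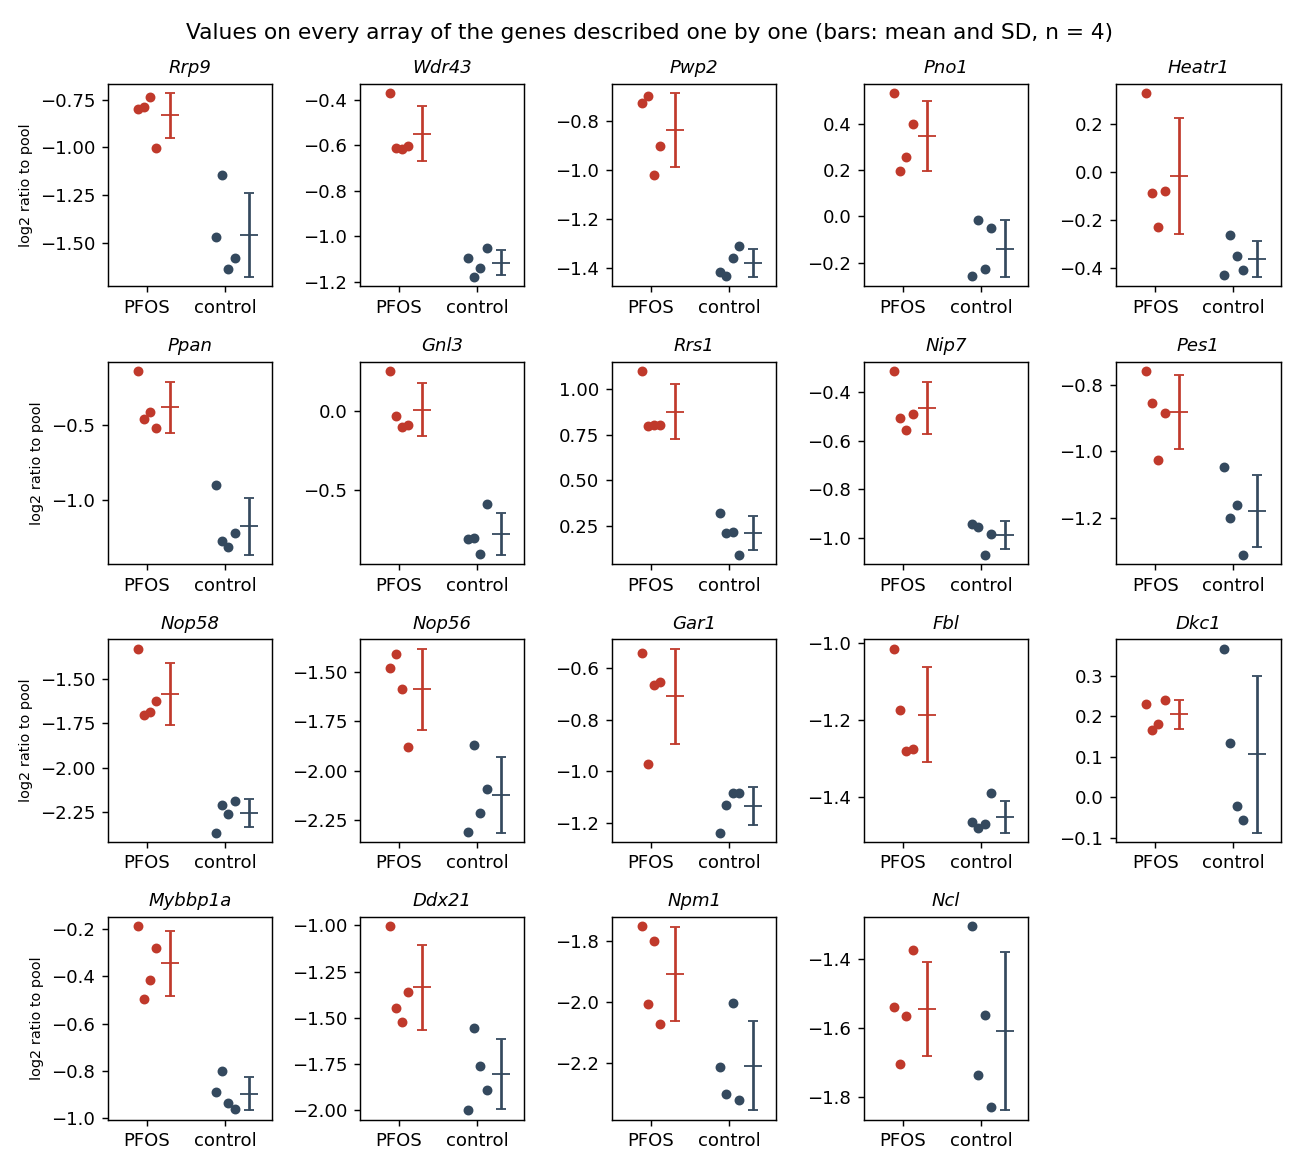
Log2 ratio to the pool (vertical axes, each gene on its own scale) of the 19 genes described one by one, with PFOS rats on the left and control rats on the right (points: rats, bars: mean and SD, n = 4). The groups do not overlap for Rrp9, Ppan, Gnl3 and Nop58, and they overlap for Nop56, Dkc1, Npm1 and Ncl.

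The calls were not equally stable. With each array left out, 9 of the 14 remained called in all 8 fits: Ppan, Gnl3, Rrs1, Nip7, Wdr43, Pwp2, Mphosph10, Nop58 and Mybbp1a. Rrp9 lost its call without control rat 1, 3 or 4 or PFOS rat 1, 2 or 3, with changes of 0.56 to 0.62. Pno1 kept its call only without PFOS rat 2, with 0.42 to 0.53 in the other fits, and Bysl only without control rat 2 or PFOS rat 3, with 0.41 to 0.46 in the others. Nop2 and Ebna1bp2 lost theirs in each of the 8 fits, where the changes ran from 0.40 to 0.53 and from 0.34 to 0.45.

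The changes were also measured in the liver channel without the pool. In Cy5 alone the median change of the 51 was 0.32, and 17 were called higher, where 2.39% of all features were, including the 14 called on the ratio. The change in the Cy3 channel, which holds the pool, was largest in size for Rrs1, at -0.115. In Cy5 alone Rrs1 changed by 0.56, against 0.67 on the ratio, and it was called on both. With the processed signals of the scanner files it changed by 0.70 and was not called (adjusted p = 0.052, limma). Of the 8 genes with a second probe, 7 had both probes well above background on all arrays, and the sign was the same on both. These pairs were, chosen probe first, 0.11 and 0.15 for Ddx27, 0.55 and 0.56 for Mybbp1a, -0.19 and -0.14 for Nop10, 0.48 and 0.36 for Nop2, 0.53 and 0.46 for Nop56, 0.54 and 0.44 for Pwp2, and 0.11 and 0.19 for Utp14a. For Utp15 the other probe was well above background on 1 array only and gave -0.006, against 0.24 on the chosen probe.

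Control liver against the pool was not the contrast that chose the genes. Its control means also enter that contrast, so this measure is not independent of the choice. It asks how much of each messenger RNA untreated liver held, relative to the commercial pool. Of the 51, 41 were called below the pool in control liver (80.4%), where 36.9% of all features were, and 4 were called above it, where 48.2% of all features were. The median was -0.61, against 0.16 for all features. Nop58 was lowest, at -2.26, which is 4.78-fold below the pool (adjusted p = 1.12e-09, limma). Npm1 was at -2.21, Nop56 at -2.12, Ddx21 at -1.80 and Ncl at -1.61, so these 5 genes were the furthest below the pool. Related lists were also mostly called below the pool: 70% of the other assembly factors tested, 86.5% of the ribosomal proteins, 90.9% of the RNA polymerase I genes and 100% of 10 cell division genes. The 4 of the set called above the pool were Nop10 at 0.53, Dcaf13 at 0.44, Imp4 at 0.21 and Rrs1 at 0.21. The pool was 1 RNA on all arrays in the other dye, so its own spread and any dye effect are not covered by the test. The size also depended on the normalization: with median centring the median was -1.63 for the set and -0.63 for all features. All 51 were then called below the pool and 0 above it, so which side of the pool a gene lay on depended on it too.

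**Figure D4:**
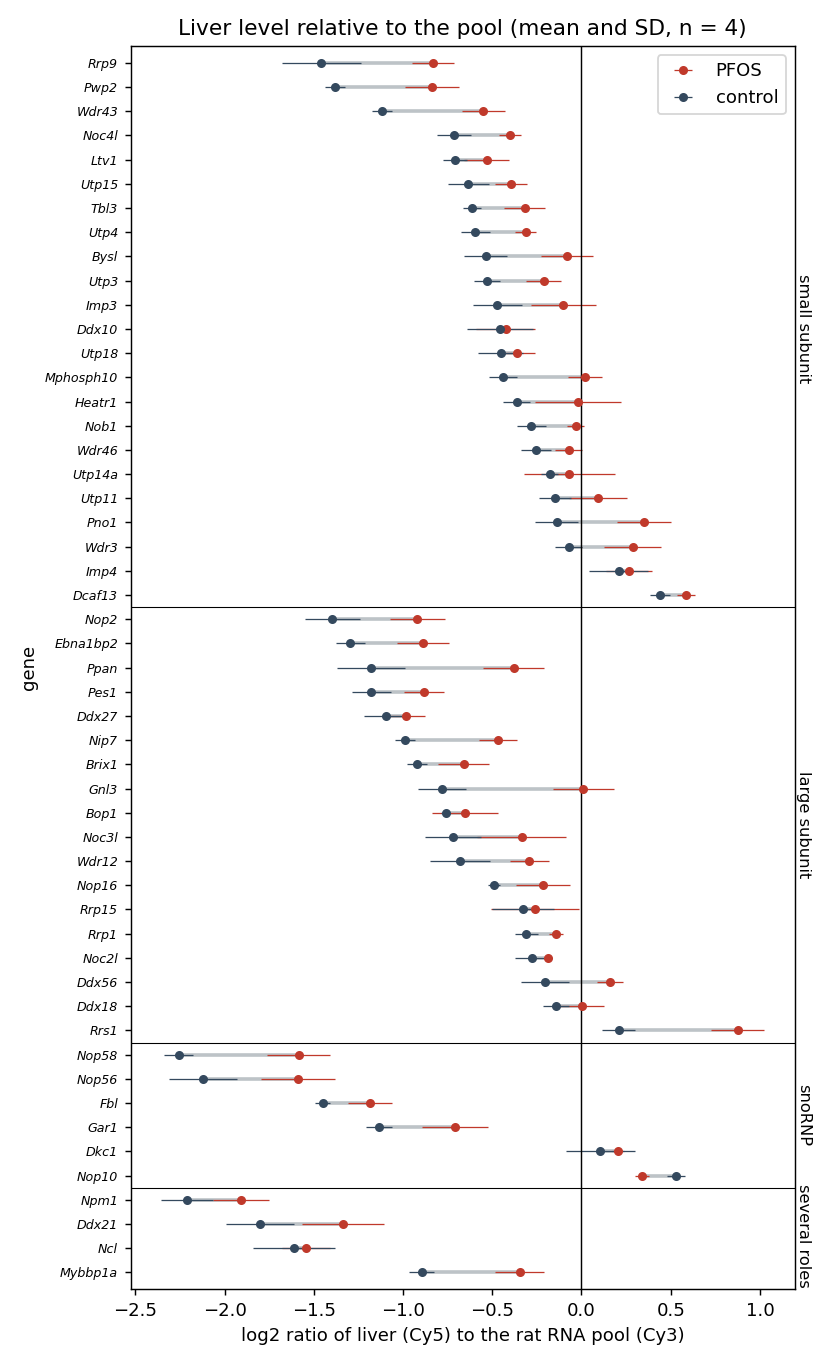
Mean log2 ratio of liver to the rat RNA pool (horizontal axis, bars: SD, n = 4) in PFOS and control livers for the 51 tested genes, by class, with a vertical line at equal signal. The control mean is below 0 for 46 genes and the PFOS mean for 39, and Nop58 is the lowest in control liver.

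In both groups most of the set stayed below the pool: 46 of 51 control means and 39 of 51 PFOS means were below 0.

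Related lists of ribosome production had smaller median changes, a difference that was not tested. The set was chosen with these changes known, so a larger median in it can follow from the choice alone. Of 83 other assembly factors 60 were tested, with a median of 0.15, and 51 were above 0, where 47.7% of all features were. Of the 60, 2 were called higher and 0 lower, where 1.84% and 2.14% of all features were. At an unadjusted p under 0.05, 22 of the 60 were higher and 0 lower, where 9% and 10.9% of all features were. Nle1, the partner of the midasin ATPase, changed by 0.34 (adjusted p = 0.0404, limma), and Riok2, a kinase of the late small subunit precursor, by 0.41 (adjusted p = 0.0411, limma). In both the PFOS rats lay above all control rats. Nle1 lost its call whichever array was left out, with changes of 0.31 to 0.36, and Riok2 kept it only without control rat 1, with 0.37 to 0.43 in the other fits.

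Of 15 genes of RNA polymerase I and its factors, 11 were tested. The median was 0.17, 9 were above 0 and 1 was called higher, where 1.84% of all features were. At an unadjusted p under 0.05, 4 were higher (36.4%) and 0 lower, where 9% and 10.9% of all features were. Polr1g, a subunit of the enzyme, measured -0.91, -1.23, -1.12 and -1.19 in PFOS rats, against -1.56, -1.86, -1.84 and -1.73 in control rats. Its change was 0.63 (SE 0.10, adjusted p = 0.0111, limma) with no overlap. Polr1b, the second largest subunit, changed by 0.41 (adjusted p = 0.0602), Polr1a by 0.13 and the factor Ubtf by 0.17 (adjusted p = 0.515), none of them called. Rrn3 was not tested.

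The 74 ribosomal proteins tested, of 79 listed, had a median of 0.06, and 56 were above 0. At an unadjusted p under 0.05, 6 were higher (8.1%) and 0 lower, where 9% and 10.9% of all features were. Only Rps26 was called, 1 of the 74, where 1.84% of all features were called higher. Its change was 0.35 (SE 0.07, adjusted p = 0.0304, limma), and it lost its call whichever array was left out (0.33 to 0.38). Ribosomal proteins have near-identical copies, so probes may bind more than 1 transcript and these values are uncertain. The 10 tested exosome genes, which trim precursor RNA, had a median of 0.11 with 8 above 0, and 0 were called by limma. At an unadjusted p under 0.05, 1 of them was higher (10%, against 9% of all features). The 7 tested genes of the MYC network had a median of -0.05 with 3 above 0, and 0 were called. At an unadjusted p under 0.05, 1 of them was lower (14.3%, against 10.9% of all features), Mxi1 at -0.24. The genes were Myc, Max, Mlx, Mnt, Mxi1, Mxd1 and Mxd3, and their median is not a measure of MYC activity. Myc itself was far below the pool and scattered, with -3.28, -2.55, -1.5 and -2.07 in PFOS rats, against -3.47, -2.17, -3.02 and -3.61 in control rats. Its change of 0.72 had a standard error of 0.41 and an adjusted p of 0.36. Nolc1, which binds snoRNPs, changed by 0.28 (adjusted p = 0.132).

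**Figure D5:**
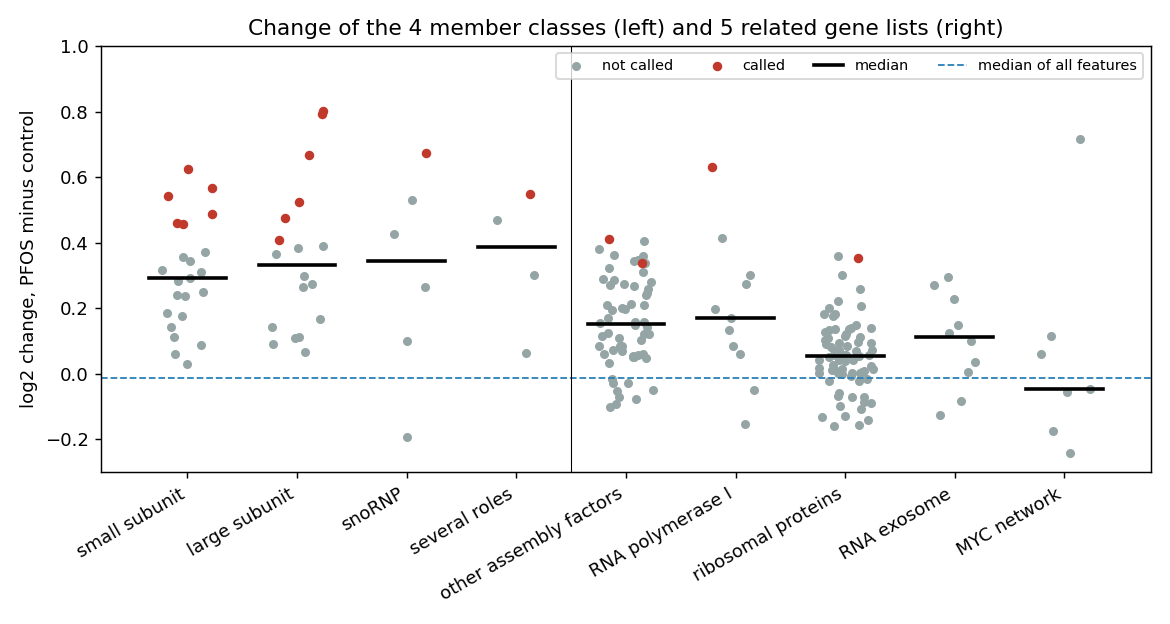
Log2 change, PFOS minus control (vertical axis), of each tested gene in the 4 classes of the set (left) and in 5 related lists (right), with called genes in red, a black line at each median and a dashed line at the median of all features, -0.01. Medians run from 0.29 to 0.39 in the classes and from -0.05 to 0.17 in the related lists. The set was chosen with these changes known.

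Markers of liver cell types were measured on the same arrays. Hepatocyte markers had a median change of -0.08, with 3 of 9 above 0, and averaged, per array, 6.12 to 6.44 in PFOS rats and 6.19 to 6.47 in control rats. All 7 Kupffer cell markers were below 0 (median -0.15), with array means of 3.45 to 4.42 in PFOS rats and 3.66 to 4.58 in control rats. The 3 tested endothelial markers were below 0 as well (median -0.48), with 3.82 to 4.39 in PFOS rats and 4.17 to 4.79 in control rats. In Cy5 alone the median was 0.02 for hepatocyte, -0.30 for Kupffer cell and -0.39 for endothelial markers. On the ratio, the ranges of array means of these 3 lists overlapped between the groups.

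Stellate cell markers had a median of -0.15, with 2 of 7 above 0, and means of -0.33 to -0.07 in PFOS rats and -0.12 to 0.12 in control rats. The 4 tested bile duct markers were all above 0 (median 0.10), with means of -2.14 to -1.88 in PFOS rats and -2.41 to -1.98 in control rats. Lymphocyte markers had a median of -0.15, with 1 of 5 above 0, and means of -1.04 to -0.58 in PFOS rats and -0.78 to -0.56 in control rats, and Cd3e was not well above background. Genes of cell division had a median of -0.11, with 1 of 10 above 0, and means of -3.16 to -2.75 in PFOS rats and -2.87 to -2.73 in control rats. None of the markers in these 7 lists was called by limma; at an unadjusted p under 0.05, 3 were higher and 7 lower, where 9% and 10.9% of all features were. Their part in the changes of the assembly factors was not tested.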

How the data were processed

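Liver messenger RNA of 4 PFOS rats and 4 control rats was measured on two-colour Agilent arrays. The labels name separate animals. Spot intensity values in the deposited scanner files came from Agilent Feature Extraction 10.7.3.1 (submitters' processing notes). They are linear median signals and median local backgrounds, where mean signals had been planned for, and processed signals. A value table deposited by the authors gives log2 ratios; how it was made is not given in the sources used here. Correlations of 0.995 to 0.997 with loess log2 ratios without background subtraction (slopes 0.989 to 0.993) gave its scale and direction. Its array medians were -0.048 to -0.061, and its centring is unknown.

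Each array held 62976 spots, 4259 of them controls, and 0 were saturated. Background was corrected with normexp (offset 50), loess was run within arrays giving control spots weight 0, and outlier spots (733 to 991 per array) were left out. Spots of a probe were averaged. Probes were named by transcript accession, without version, in the RefSeq genes of GRCr8, which gave 18004 of 30367 probes a symbol. A probe was kept (16952 were) if at least 4 of the 8 arrays had it well above background in Cy5, and the probe with the highest mean Cy5 stood for its gene. The 15204 features were fitted with limma 3.58.1 (lmFit, eBayes) in R 4.3.3, with data.table (version 1.17.8) and jsonlite; tests were two-sided. Cy5 alone was quantile normalized. The limma fit was tested on simulated log2 ratios, and the steps before it were not.

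The genes of the set and the related lists were chosen with earlier results of these data known. Values on every array were given for the 4 largest rises and 2 largest falls in each subunit class (there were no falls), the 3 largest changes in the other classes, and Fbl, Dkc1, Ncl, Npm1, Nop56, Pes1 and Heatr1. Of each related list up to 3 genes with the smallest p, and Myc, Ubtf, Polr1a, Polr1b, Rrn3 and Nolc1, could be named; the values on every array of Nop10, Mphosph10, Bysl, Utp14a, Nop2, Ebna1bp2 and Noc3l and the changes of other genes of the set were added after they were seen. Alternatives covered the background (none, offset 0), the processed signals, normalization (median centring, scaling), the authors' table, 2 filters on dim probes, the mean of a gene's probes, slide row or column as a block, each row alone, Cy5 alone, a minimum fold of 1.5 and each array left out. The number of arrays limits the precision.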

Additional observations from a re-analysis of the deposited data

Results flagged for a closer look

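Of 76 groups of 4 rats examined, 4 held a value far from the other 3 by Dixon's test, and chance flags about 1 in 20 groups. Rrs1 was at 1.10 in PFOS rat 1, while the other 3 PFOS rats were at 0.80. Wdr43 was at -0.37 in the same rat, while the others were at -0.62 to -0.60. Fbl was at -1.39 in control rat 4, and the other control rats were at -1.48 to -1.46. Mphosph6, a cofactor of the exosome, was at -0.35 in PFOS rat 4, and the other PFOS rats were at -0.90 to -0.81.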

How the results depend on the processing

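No paired analysis was possible because the replicate numbers were given in accession order and pair no rats. In the 22 alternatives that give a median, the median change of the 51 genes stayed above 0 and 0 of them were called lower. The count called higher, 14, was 3 with median centring, 7 with slide column as a block, 0 in slide row 1 or 2 alone, 5 with a 1.5-fold minimum and 9 to 12 with an array left out. For all features these counts, 606 of either sign and 280 higher, were 239 and 129, 268 and 138, 93 and 41 (row 1), 32 and 15 (row 2), and 344 and 166, with 350 to 519 and 166 to 313 for left-out arrays.

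Class medians moved by more than the spread between arrays in a few settings: the snoRNP median was 0.42 with offset 0, and in row 2 alone the large subunit median was 0.23 and that of several roles 0.31. Over left-out arrays these 2 ran from 0.26 to 0.37 and 0.30 to 0.43. The RNA polymerase I median was 0.030 in row 1 alone, and the MYC network's ran from -0.071 to 0.047 over left-out arrays. The 2 calls among other assembly factors were 0 with offset 0, median centring, scaling, the column block, each row alone and the minimum fold, 1 with Cy5 alone and the row block, and 0 to 2 with an array left out. The RNA polymerase I count of 1 was 0 with median centring, the column block and each row alone, 2 with the row block and 1 to 2 for left-out arrays. The ribosomal protein count of 1 was 0 with median centring, scaling, the column block, each row alone, the minimum fold and each array left out.

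Against the pool, the median of -0.61 was -0.84 with processed signals, -1.63 with median centring and -0.78 with the authors' table. The count called above the pool, 4, was 2, 0 and 1 in those, 2 in each row alone and 2 to 4 with an array left out. Why these values moved was not tested, except that rows alone and left-out arrays have fewer samples. Dim probes limit the set by 1 gene, Utp20.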
